A study of Caenorhabditis elegans with 4 samples.

Results

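The 10 transcription factor genes studied here assign embryonic cells of the nematode Caenorhabditis elegans to endoderm, epidermis, pharynx or body wall muscle, and they were examined for CFP-1 and for trimethylated lysine 4 of histone H3 (H3K4me3). The genes were chosen by name, with earlier results of these data known. For the endoderm these were med-1, med-2, end-1, end-3, elt-7 and elt-2. The others were elt-1 and elt-3 for the epidermis, pha-4 for the pharynx and hlh-1 for body wall muscle. All 10 were found in the gene table, among 19971 protein-coding genes on the 6 nuclear chromosomes. The data were 4 ChIP-seq peak lists, 2 from an anti-GFP serum directed at CFP-1::GFP and 2 from an anti-H3K4me3 antibody, with samples RC03 and RC04 for each. All came from whole late embryos of strain JA1597, aged for 3.5 hours at room temperature after bleaching. This strain carries cfp-1 fused to gfp at a single inserted site, under the dpy-30 promoter, so the serum reports the tagged copy, and all 4 samples share this transgene. A list from a strain without GFP was not analysed here. Whether RC03 and RC04 were grown apart is not in the labels, and differences between them may be technical only.

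Selector genes of this kind encode DNA-binding proteins that are switched on in a few founder cells and start the gene programme of a tissue or organ. In the endoderm they act in steps: the GATA-type factors MED-1 and MED-2 act in the blastomere EMS, END-1 and END-3 follow in its daughter E, and ELT-7 and ELT-2 then take over and maintain the intestine. CFP-1 is the CXXC zinc finger subunit of the COMPASS complex. COMPASS places H3K4me3, a mark found mainly around promoters of active genes.

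The gene table gives the outer ends of each gene in assembly WBcel235 but no strand and no inner transcript starts, whereas the peaks are in ce10. A peak was therefore counted at a gene when it lay over the gene or within 500 bp of it, a window that holds every annotated start. Chromosome lengths of both builds differ by about 100 bp at most, so a distance between a peak and a gene end is uncertain by up to about 100 bp. Each peak carries a score from the authors' peak caller on a −log10 p-value or q-value scale. Scores grow with read depth, which is unknown here, so each is given with its percentile within its own list. The lists held 9216 and 9256 CFP-1 peaks and 11357 and 12343 H3K4me3 peaks. Because depth is unknown, a missing peak means that none was called, not that CFP-1 or the mark was absent.

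The calls separated the 6 endoderm genes from the other 4, of which pharynx and body wall muscle hold 1 gene each. All 6 endoderm genes lacked a peak in all 4 lists, whereas elt-1, elt-3, pha-4 and hlh-1 each had H3K4me3 peaks in both samples. H3K4me3 was thus called at 4 of 10 selector genes in both lists, against 33.1% of all protein-coding genes. CFP-1 was called in both lists at 1 of 10, hlh-1, against 29.3% of all protein-coding genes. No peak of any list was found at 6 of 10, against 58% of all protein-coding genes. The counts for H3K4me3 and for genes without a peak were near these shares, so neither sets the 10 genes apart from genes at large. Gene length moves with the split: the 6 endoderm genes are 525 to 2417 bp long and the other 4 are 3953 to 7266 bp long. Of all genes under 2500 bp, 65.7% had no peak in any list, and of all genes between 3000 and 8000 bp, 40.2% had H3K4me3 in both lists. The part of length in the split was not tested.

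**Figure D1:**
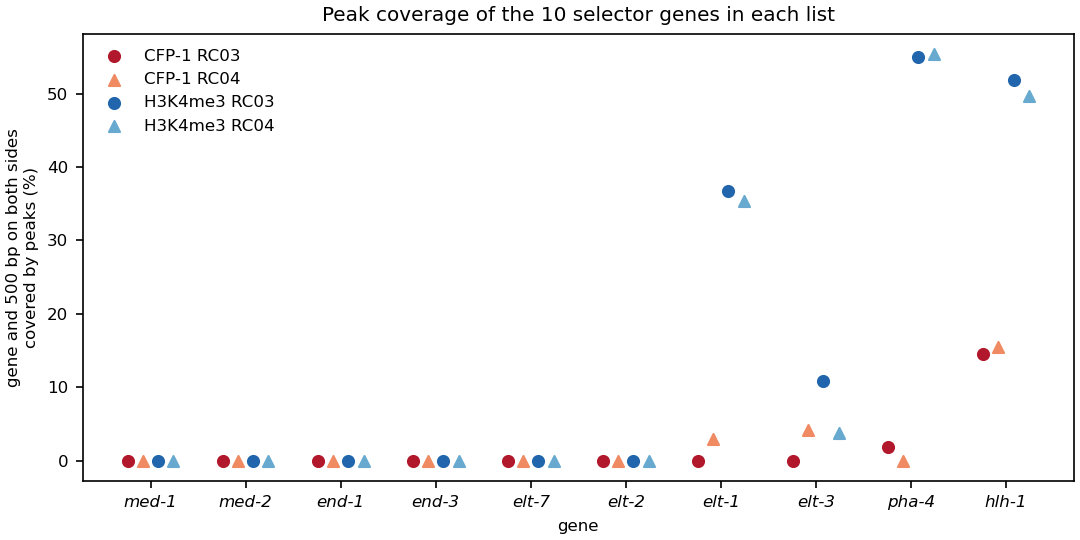
Percentage of each selector gene, with 500 bp added on both sides, that was covered by peaks, with 1 point per list (circles RC03, triangles RC04; red CFP-1, blue H3K4me3). The 6 endoderm genes lie at 0 in all lists, and pha-4 and hlh-1 have the highest H3K4me3 coverage, at 49.7 to 55.4%.

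Counted per list, selector genes with a CFP-1 peak numbered 2 in RC03, against 31.5% of all genes, and 3 in RC04, against 31.8%. Those with an H3K4me3 peak numbered 4 in RC03, against 35.2% of all genes, and 4 in RC04, against 35%. The mean difference, CFP-1 minus H3K4me3, was -1.5 genes per list. An exact permutation test over the 4 lists, without pairing them by sample number, gave p = 0.333 (two-sided, n = 2 lists each). This is the smallest p that such a test allows, so it cannot pass 0.05. Within 500 bp of either gene end alone, CFP-1 was called in both lists at 1 of 10 selector genes, hlh-1, against 26% of all genes. H3K4me3 was called there at 2 of 10, pha-4 and hlh-1, against 30.6%, and both antibodies overlapped there in all pairs of lists at 1 of 10, hlh-1, against 22.1%.

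hlh-1 encodes the worm homologue of the vertebrate myogenic factor MyoD and acts in body wall muscle. It was the one selector gene with CFP-1 in both lists, and the one where CFP-1 and H3K4me3 peaks overlapped in all 4 pairs of lists, which 23.8% of all protein-coding genes also showed. The stronger CFP-1 peak lay on chromosome II at 4518329 to 4518670 in RC03 (342 bp, score 13.3, 52.5th percentile of its list) and at 4518263 to 4518645 in RC04 (383 bp, score 12.7, 51.7th percentile). It crossed the lower-coordinate end of the gene, reaching 245 bp outward and 96 bp inward in RC03, and 311 bp outward and 71 bp inward in RC04. Both peaks were of middling strength. Over all genes with CFP-1 in both lists, the median score of the highest peak was 37.3 in RC03 and 39.4 in RC04.

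This CFP-1 peak lay across a gap in the mark. In RC03 the H3K4me3 peaks on either side ran from 4517698 to 4518394 (score 10.5) and from 4518616 to 4520085 (score 25.4), which left 221 bp between them. The RC03 CFP-1 peak spanned the whole gap and overlapped its neighbours by 66 bp and 55 bp. In RC04 the flanking H3K4me3 peaks ran from 4517928 to 4518410 (score 9.37) and from 4518589 to 4520092 (score 21.2), with 178 bp between them, and the RC04 CFP-1 peak overlapped them by 148 bp and 57 bp. The mark thus covered 35.4% of this CFP-1 peak in RC03 and 53.5% in RC04, at its 2 edges. Within 500 bp of a gene end, the overlap of both antibodies at hlh-1 rests on these margins. No pair of peaks there shared 50% of the shorter peak in all pairs of lists. The count of 1 selector gene became 0, against 19.5% of all protein-coding genes under that rule. Among all CFP-1 peaks that met an H3K4me3 peak of the same sample number, 12.3% in RC03 and 13.5% in RC04 met at least 2 and so bridged a gap.

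A weaker CFP-1 signal lay further inside hlh-1, again in both samples. RC03 had peaks at 4520100 to 4520241 and at 4520337 to 4520568, each with a score of 4.21, at the 11.8th percentile. RC04 had 1 peak over the same stretch, at 4520048 to 4520432, with a score of 4.70, at the 17.5th percentile. All of these overlapped H3K4me3 peaks of both samples. Over the gene and its flanks, CFP-1 covered 716 bp in RC03 and 768 bp in RC04, of which 555 bp were shared.

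H3K4me3 covered 2571 bp of the hlh-1 window in RC03 and 2463 bp in RC04, or 51.9% and 49.7%. It was called as 7 peaks in RC03, from 99 to 1470 bp wide, and as 5 peaks in RC04, from 101 to 1504 bp wide. The widest peak began 42 bp inside the lower-coordinate end in RC03 and 15 bp inside it in RC04, and it carried the highest score in both samples, at the 73.8th and 73.7th percentile of its list. The remaining peaks inside the gene were 99 to 357 bp wide. Their scores ran from 1.85 to 7.39, at percentiles of 0.608 to 54.1 within their lists. The mark also went on beyond the window, with 1 further peak in RC03 and 3 in RC04 between 745 and 1114 bp outside the lower-coordinate end. B0304.4 overlaps the higher-coordinate end of hlh-1, so a narrow RC03 peak near that end, at 4521963 to 4522072, cannot be given to either gene alone.

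**Figure D2:**
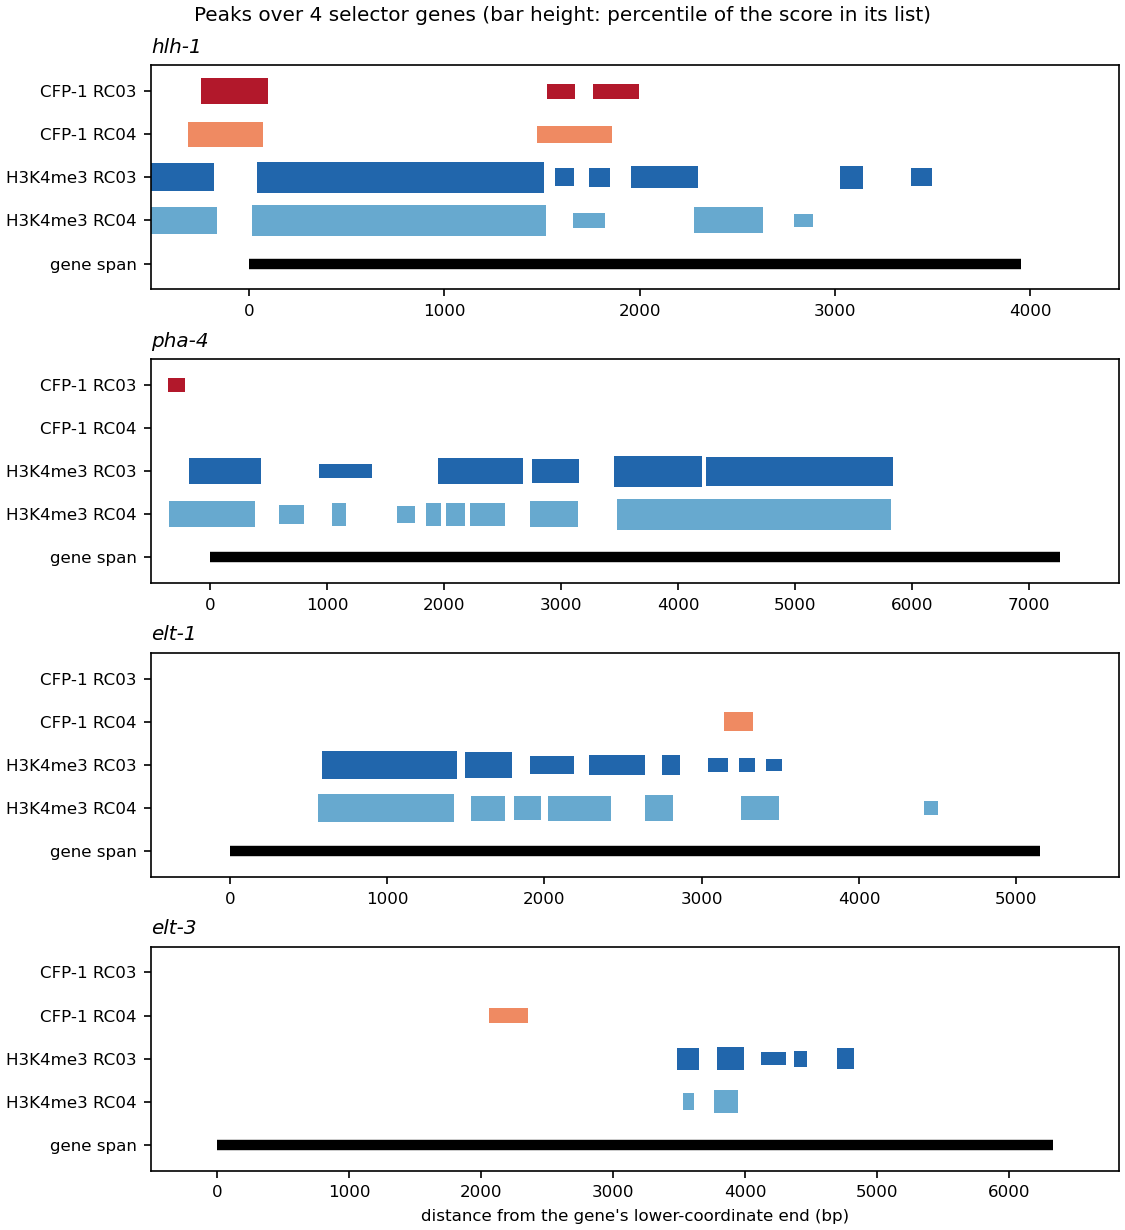
Peaks of the 4 lists over hlh-1, pha-4, elt-1 and elt-3, drawn to scale against the distance in bp from the lower-coordinate end of each gene (black bar: gene span), and taller where the score has a higher percentile within its list. CFP-1 recurs in RC03 and RC04 at hlh-1, where it bridges the gap between H3K4me3 peaks, and appears in 1 list at pha-4, elt-1 and elt-3.

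pha-4 encodes the FoxA forkhead factor that specifies the pharynx. It had the broadest H3K4me3 of the 10 genes and almost no CFP-1. The mark covered 4550 bp of the pha-4 window in RC03 and 4578 bp in RC04, or 55.0% and 55.4%, and 3888 bp were shared between the samples. The median over all genes with the mark in both lists was 822 bp in RC03 and 826 bp in RC04. RC03 had 6 peaks, with scores of 2.75 to 24.6, and RC04 had 9 peaks, with scores of 3.52 to 21.2.

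The strongest H3K4me3 in pha-4 lay in the middle of the gene and not at either end. In RC04 it was a single peak on chromosome V at 20756528 to 20758876, 2349 bp wide, at the 73.7th percentile. In RC03 the same stretch was divided into peaks at 20756506 to 20757255 (score 24.6, 73.3rd percentile) and 20757294 to 20758886 (score 13.1, 64.7th percentile). A separate peak crossed the lower-coordinate end in both samples, at 20752874 to 20753487 in RC03 (score 7.71) and at 20752705 to 20753436 in RC04 (score 7.76). The table lists 3 RefSeq transcripts of pha-4 without their starts, so whether the central block begins at an inner start cannot be told from these files.

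CFP-1 at pha-4 was a single RC03 peak at 20752690 to 20752838, 149 bp wide, with a score of 3.81 at percentile 8.63. It lay 214 to 362 bp outside the lower-coordinate end, and it overlapped the RC04 H3K4me3 peak there but none of RC03. The nearest RC04 peak lay 1494 bp beyond the opposite end, at 20761811 to 20762021 (score 5.45), and RC03 had a peak at that place too, at 20761800 to 20761925 (score 3.43). No CFP-1 peak was called over the central H3K4me3 block in either list.

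elt-1 encodes the GATA factor that starts epidermal fate, and elt-3 encodes a GATA factor that acts after it in epidermal cells. Both carried H3K4me3 inside the gene and away from its outer ends. At elt-1 the mark was called as 8 peaks in RC03 and 7 in RC04, covering 2256 bp and 2174 bp, or 36.7% and 35.3% of the window. The strongest peak lay on chromosome IV at 9615577 to 9616438 in RC03 (862 bp, score 13.1, 64.7th percentile) and at 9615552 to 9616417 in RC04 (866 bp, score 10.2, 62.5th percentile). All further peaks, towards higher coordinates, were narrower and weaker than this one, though without a steady decline. The last of them scored 2.05 in RC03 and 2.62 in RC04. The first peak began 582 bp inside the lower-coordinate end in RC03 and 557 bp in RC04. elt-1 therefore falls just outside a distance of 500 bp from a gene end, and the uncertainty between the builds could bring it inside.

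elt-3 had the weakest mark of the 4 genes. RC03 had 5 narrow H3K4me3 peaks between positions 13938365 and 13939710 of chromosome X, with scores of 2.44 to 5.74, and they covered 797 bp or 10.9% of the window. RC04 had 2 peaks, at 13938413 to 13938500 (score 3.52) and 13938648 to 13938832 (score 5.51), which covered 273 bp or 3.72%. Of these 273 bp, 253 bp were also covered in RC03. Coverage thus differed between the samples by more than it did at elt-1, pha-4 or hlh-1.

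CFP-1 was called at each of these epidermal genes in RC04 alone. The elt-1 peak, at 9618138 to 9618319, was 182 bp wide, with a score of 6.09 at percentile 27.2, and it overlapped H3K4me3 peaks of both samples. The elt-3 peak, at 13936939 to 13937240, was 302 bp wide, with a score of 4.26 at the 13.8th percentile, and it met no H3K4me3 peak. Both lists did share a CFP-1 peak outside elt-3, 2170 bp beyond the higher-coordinate end in RC03 (score 17.05) and 2145 bp in RC04 (score 16.1). Of the 4 selector genes with H3K4me3 in both lists, 1 had CFP-1 in both lists, against 77.4% of all protein-coding genes with that mark. Of genes 3000 to 8000 bp long with H3K4me3 in both lists, 79.2% had CFP-1 in both lists. The contrast depends on the call in both lists, since each of the 4 genes had CFP-1 in at least 1 list. CFP-1 in either list was thus called at 4 of 10 selector genes, against 34.1% of all protein-coding genes.

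The mark over these genes was broken into many called peaks. At least 5 H3K4me3 peaks in both lists were found at elt-1, pha-4 and hlh-1, that is at 3 of 10 selector genes, against 0.796% of all protein-coding genes and 2.41% of those with the mark in both lists. Of marked genes 3000 to 8000 bp long, 1.99% had as many. The median over all marked genes was 1 peak per gene in both lists. The cut of 5 was not set in the plan, and it equals the number of hlh-1 peaks in RC04. A cut of 6 left 2 of 10 selector genes, elt-1 and pha-4, against 0.456% of all genes. With a cut of 4 there were 3 of 10, against 1.46%. The number of peaks depends on how the peak caller divided the signal. After joining peaks of a list that lay at most 200 bp apart, 0 of 10 selector genes and 0.21% of all genes kept 5 or more, and the 8 elt-1 peaks of RC03 became 1 stretch of 2931 bp. Among peaks at or above the median score of their list, 0 of 10 selector genes had 5 or more, so the count rests on the weaker peaks.

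The highest H3K4me3 peak of each marked selector gene ranked below the typical marked gene. In RC03 it was at the 73.8th percentile for hlh-1, the 73.3rd for pha-4, the 64.7th for elt-1 and the 43.4th for elt-3, against a median of 83.2 over all marked genes. In RC04 it was at the 73.7th percentile for both hlh-1 and pha-4, the 62.5th for elt-1 and the 42.9th for elt-3, against a median of 84.5. The order of elt-1 and elt-3 below hlh-1 and pha-4 was the same in both samples, whereas hlh-1 and pha-4 differed by less than 1 percentile in each. Of the 4 marked selector genes, 0 had their highest peak at or above the 75th percentile in both lists, against 64.2% of all marked genes, although hlh-1 and pha-4 lay just below that limit. This is not particular to the selector genes. In a list of 20 differentiation genes of the same organs, described below, 0 of the 10 marked genes reached it, the highest at 74.7.

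**Figure D3:**
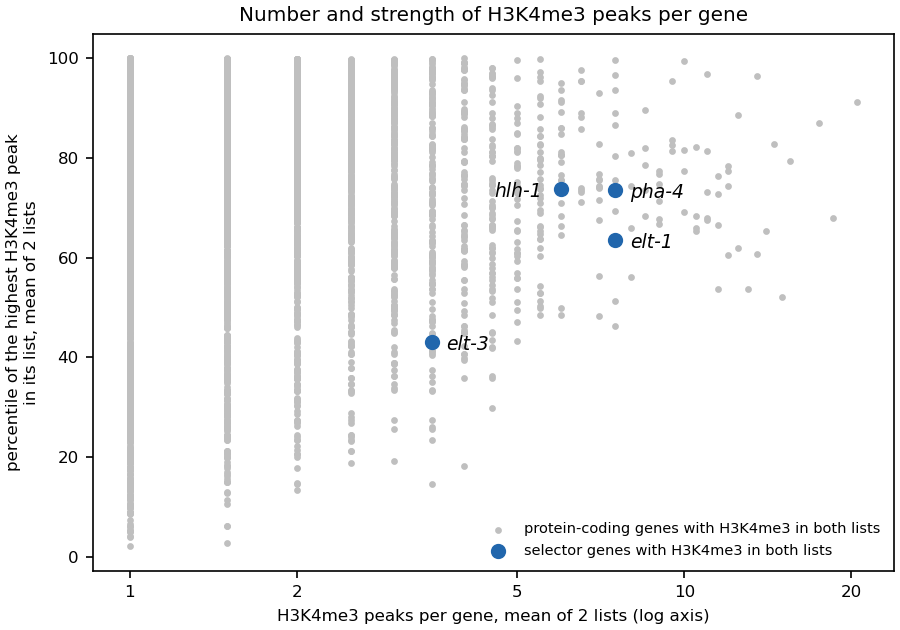
Number of H3K4me3 peaks per gene (log axis) against the percentile of its highest H3K4me3 peak, both as means of RC03 and RC04, for all protein-coding genes with the mark in both lists (grey) and the 4 marked selector genes (blue). hlh-1, pha-4 and elt-1 lie at 6 or more peaks per gene with highest peaks at percentiles of 62.5 to 73.8 in single lists.

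The endoderm genes lay at varied distances from the nearest called peak. med-1 and med-2 are short near-identical copies on chromosomes X and III. Reads from one copy can map to the other, and no source used here says how such reads were treated, so the lack of a call at either is uncertain. The nearest CFP-1 peak to med-1 was 14.3 to 18.1 kb away and the nearest H3K4me3 peak 14.4 to 14.5 kb away. For med-2 these distances were 4.37 to 4.39 kb and 2.84 to 2.87 kb, and all 4 nearest peaks lay over brd-1, a gene that begins or ends 180 bp from med-2.

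end-1 and end-3, a GATA pair that specifies the E cell, lie in the same part of chromosome V. The nearest CFP-1 peaks to end-1 were 15.4 kb away and the nearest H3K4me3 peaks 15.2 kb away, all over ric-7, whose span comes within 90 bp of end-1. end-3 was the endoderm gene closest to strong peaks. H3K4me3 was called 1544 to 1781 bp from it over aip-1, at 14010859 to 14012914 in RC03 (score 101.6, 98.7th percentile) and at 14010879 to 14013151 in RC04 (score 82.2, 96.7th percentile). CFP-1 lay over the same place where it scored 69.2 in RC03 and 48.4 in RC04, 2167 and 2300 bp from end-3. These peaks stopped short of the 500 bp limit by more than 1000 bp, so the uncertainty between the builds does not reach them.

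elt-7 and elt-2, which act in the differentiating and mature intestine, also lay far from called peaks. The nearest CFP-1 peak to elt-7 lay 16.3 kb away over hil-4, where it scored 13.8 in RC03 and 28.9 in RC04, and the nearest H3K4me3 peaks lay 28.1 to 29.1 kb away. The nearest CFP-1 peak to elt-2 lay 41.0 kb away over mboa-7, with scores of 133.7 and 120.4, and the nearest H3K4me3 peaks lay 18.6 kb away over vab-3, with scores of 3.74 and 4.48. C33D3.3 is the one protein-coding gene within 2500 bp of elt-2, at 1909 bp.

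Other factors of the same lineages were taken from a list of 25 genes, of which 24 were found under their names in the gene table. CFP-1 was called in both lists at 9 of 24, against 29.3% of all protein-coding genes, and H3K4me3 at 12 of 24, against 33.1%. No peak of any list was found at 7 of 24, against 58%. None of these counts, nor those by tissue that follow, was tested against other genes. Among the maternal and early blastomere factors CFP-1 was called in both lists at 4 of 6, against 29.3% of all protein-coding genes. H3K4me3 was called in both lists at 5 of 6, against 33.1%. sys-1, a β-catenin that acts with the TCF factor POP-1, had CFP-1 scores of 176.6 in RC03 and 191.8 in RC04, and pop-1 had 27.3 and 19.3. mex-1, which encodes an RNA-binding protein of the early embryo, had no peak.

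The endoderm factor elt-4 had no peak in any list, like the 6 endoderm selector genes. It is 433 bp long, and 65.7% of all genes under 2500 bp had no peak in any list. Among pharyngeal factors CFP-1 was called in both lists at 2 of 6, against 29.3% of all protein-coding genes. H3K4me3 was called in both lists at 2 of 6, against 33.1%, and tbx-37 and pha-1 had no peak. tbx-2, a T-box factor of pharyngeal muscle, had both, with CFP-1 scores of 8.32 and 8.11 and 4 and 5 H3K4me3 peaks in RC03 and RC04. tbx-38, another T-box gene, had CFP-1 scores of 9.29 and 10.6 away from its gene ends, and ceh-22, an NK-2 type homeobox gene of pharyngeal muscle, had a single CFP-1 peak, in RC04, with a score of 3.77. Among epidermal factors CFP-1 was called in both lists at 2 of 4, against 29.3% of all genes, and H3K4me3 at 3 of 4, against 33.1%. nhr-25, a nuclear receptor of the epidermis, had CFP-1 scores of 5.04 in RC03 and 5.61 in RC04 within 500 bp of a gene end. RC04 alone had a further CFP-1 peak away from the ends, with a score of 10.3. H3K4me3 at nhr-25 was divided into 10 and 8 peaks covering 3790 and 3852 bp. elt-6, a GATA factor gene, had a single CFP-1 peak, in RC03, with a score of 5.04.

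Among muscle and mesoderm factors CFP-1 was called in both lists at 1 of 7, against 29.3% of all protein-coding genes. H3K4me3 was called in both lists at 2 of 7, against 33.1%. The one with CFP-1 was vab-7, a homeobox gene of posterior muscle, which scored 6.84 in RC03 and 8.64 in RC04 and had no H3K4me3 peak. unc-120, which encodes an SRF-type factor that acts beside HLH-1, had H3K4me3 without CFP-1, as 4 and 3 peaks with highest scores of 7.99 and 10.9. hnd-1, tbx-35 and ceh-51 had no peak. At least 5 H3K4me3 peaks in both lists were found at 2 of 24 of these genes, pal-1 and nhr-25, against 0.796% of all genes. They were 2 of the 12 with the mark in both lists, against 2.41% of all marked genes. Of these 12 genes, pie-1, pop-1 and sys-1 (3 of 12) had their highest H3K4me3 peak at or above the 75th percentile in both lists, against 64.2% of all marked genes.

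**Figure D4:**
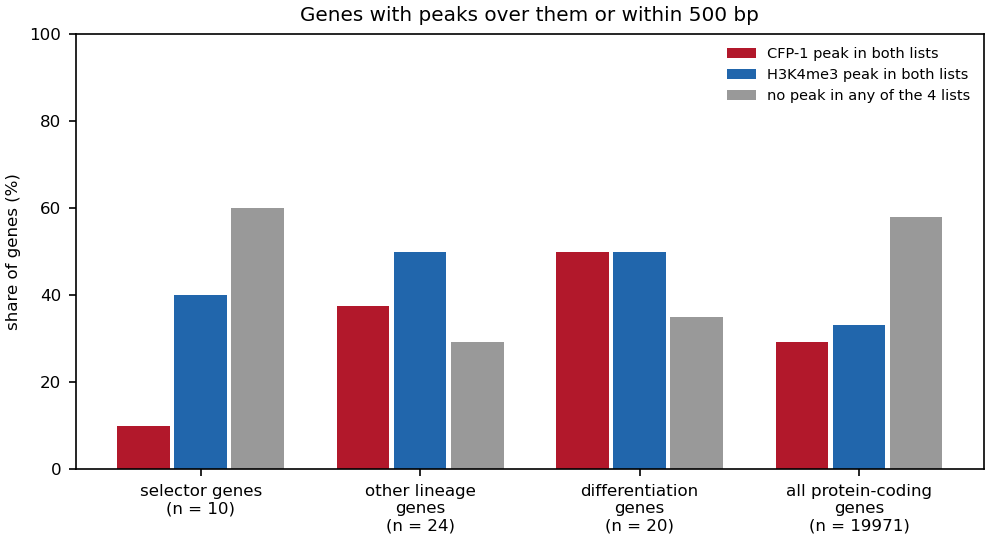
Share of genes with a CFP-1 peak in both lists (red), an H3K4me3 peak in both lists (blue) or no peak in any of the 4 lists (grey), over the gene or within 500 bp of it. The selector genes had CFP-1 in 10% and H3K4me3 in 40%, and all protein-coding genes in 29.3% and 33.1%.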

How the data were processed

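Late embryo chromatin was crosslinked, sonicated, immunoprecipitated and sequenced on the Illumina platform, per the labels' protocols. Reads were aligned with BWA to ce10 and peaks called with MACS2 2.0.10, per the submitters' processing notes. Not given in the sources used here were the control, the threshold and the handling of multiply mapped reads. Each deposited list belongs to 1 sample and holds peak positions and a score that is −log10 of either a p-value or a q-value, without saying which. Peak names in the files carry the abbreviation L3, but the labels, which give late embryos, were followed. The lists hold no read counts, so depth and the precision it gives are unknown.

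The 10 genes and the lists of other genes were chosen with earlier results of these data known. The text names all 10 selector genes, and of the other lineage factors those with the highest and lowest CFP-1 score near a gene end in each lineage and those without a peak; the other genes named were chosen after their values were seen. Gene spans came from the RefSeq table of WBcel235, which has no strand, so the planned 500 bp around transcript starts became 500 bp around either gene end, and, added after the data were seen, the whole gene with 500 bp on both sides. The counts in the report use the whole gene with its flanks unless they name the gene ends. The cut of 5 H3K4me3 peaks, the limit at the 75th percentile and the bands of gene length were not set in the plan. Overlap meant 1 bp or more. Percentiles are ranks within a list. No test was made over genes. The code that assigns peaks to genes was tested on simulated peaks. Its gene counts equalled those of bedtools 2.31.1 for the gene span and for the span with its flanks. The code for overlap between peaks of both antibodies was not checked in this way. Scripts ran in Python 3.11.15 with scipy 1.17.1, pandas 2.3.3, matplotlib 3.10.9 and numpy 2.4.6. No sequence is printed, as no sequence table was used here.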

Additional observations from a re-analysis of the deposited data

How the results depend on the processing

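Within 500 bp of either gene end, the distance closest to the planned one, CFP-1 was called in both lists at 1 selector gene (hlh-1; 26% of all genes), H3K4me3 at 2 (pha-4 and hlh-1; 30.6%) and overlapping peaks at 1 (hlh-1; 22.1%). Selector genes with a peak numbered 2 and 1 in the CFP-1 lists RC03 and RC04, against 28% and 28.2% of all genes. In the H3K4me3 lists they numbered 2 and 2, against 32.5% and 32.4%. The difference was -0.5 (exact permutation p = 1, n = 2 lists each), and over the alternatives the exact p was 0.333 or 1. A peak in either list gave 2 genes for CFP-1, against 30.2% of all genes, and 2 for the overlap, against 25.1%. Over the gene span, and over the span with 500 bp on both sides, H3K4me3 gave 4, against 27.3% and 33.1% of all genes. For the span alone the background became 16.8% for CFP-1 and 13.1% for the overlap. Overlap of 50% of the shorter peak gave 0, against 19.5% of all genes. With 1 CFP-1 list left out, CFP-1 was called at 1 to 2 genes, the higher number without RC04, where pha-4 was added. The shares of all genes were 28.2% without RC03 and 28% without RC04. At least 5 H3K4me3 peaks were found at 3 genes (0.796% of all genes). The count was 0 after joining peaks (0.21%) and 0 with peaks at or above the median score (0.0651%). It was 3 without the RC03 list (1.45%) and 4 without the RC04 list (1.1%). Moving the genes by 100 bp towards higher coordinates brought in elt-1, for 3 genes with H3K4me3, against 30.6% of all genes. With the sample number as replicate block (RC03 with RC03, RC04 with RC04), 1 gene showed overlap, against 22.2% of all genes. With RC03 and RC04 crossed it was again 1 gene, against 22.1%. Of 91 values under alternatives, 75 kept their direction or stayed within 1.5 times, and 16 moved further. Among those 16 were the overlap count and the count of genes with at least 5 peaks, which both fell to 0. Counts and shares have no sign, so only the difference between antibodies could have reversed, and it did not. The alternative with only the upstream side was not run, as the table has no strand.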

Other observations

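A list of 20 genes that mark the differentiated organs was also read; it holds mainly structural and enzyme genes, and also lin-26, a zinc finger factor gene of the epidermis that is counted among the 24 lineage factors too. Over the gene or within 500 bp of it, CFP-1 was called in both lists at 10 of 20, against 29.3% of all protein-coding genes, and H3K4me3 at 10 of 20, against 33.1%. No peak was found at 7 of 20, against 58%. At least 5 H3K4me3 peaks in both lists were found at 2 of 20, vab-10 and unc-54, against 0.796% of all genes. They were 2 of the 10 with the mark in both lists, against 2.41% of all marked genes. These counts were not tested. Among body wall muscle genes CFP-1 was called in both lists at 4 of 5, against 29.3% of all genes, and H3K4me3 at 5 of 5, against 33.1%. unc-54, the major body wall myosin heavy chain gene, had highest CFP-1 scores of 12.1 in RC03 and 7.07 in RC04. H3K4me3 at unc-54 was divided into 11 and 12 peaks covering 5530 and 5308 bp. None of the 4 pharyngeal genes had a peak in both lists of CFP-1, against 29.3% of all genes, or of H3K4me3, against 33.1%. myo-1 had a single RC04 CFP-1 peak with a score of 2.31. Among intestinal genes, CFP-1 was called in both lists at 3 of 6, against 29.3% of all genes, and H3K4me3 at 2 of 6, against 33.1%. act-5, the actin gene of intestinal microvilli, had CFP-1 scores of 12.7 and 9.19 with H3K4me3 scores of 11.8 and 10.9. ges-1, a gut esterase gene, had CFP-1 scores of 4.81 and 6.57 without H3K4me3. The other intestinal genes were asp-1, which had peaks of both antibodies in both lists, and ifb-2, pept-1 and mtl-2, which had no peak in any list. Among epidermal genes, CFP-1 was called in both lists at 3 of 5, against 29.3% of all genes. H3K4me3 was called in both lists at 3 of 5, lin-26 among them, against 33.1%. rol-6, a cuticle collagen gene, had CFP-1 scores of 7.32 and 3.43 without H3K4me3.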
